A study of Mus musculus with 12 samples.

Results

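Ribosome footprints on 9 mouse liver genes of lipoprotein assembly, lipolysis and remodelling were compared between a high-fat diet (HFD) and the same diet with lycopene (LYC). The genes are Mttp for assembly, Lpl, Lipc and Angptl4 for lipolysis, Lcat, Pltp and Abca1 for high-density lipoprotein (HDL) remodelling, and Lrp1 and Vldlr as receptors. They were chosen by symbol as a functional group, and all 9 were found among the 25033 entries of the Ribo-seq table. In Ribo-seq the mRNA is digested except where a ribosome covers it, and the covered pieces, the footprints, are sequenced and counted per gene. The mice of both groups were male C57BL/6 animals, 16 weeks old after 8 weeks on the diet, and whole liver was taken from each. No normal diet group was part of these libraries, so every comparison is between 2 high-fat feeds. Each group had 3 Ribo-seq libraries, named HFD1 to HFD3 and LYC1 to LYC3 after the replicate numbers in the sample titles. The titles and the study treat these as separate mice, whereas the protocol text states that material of the groups was pooled before library construction. If libraries shared mice, the p-values would measure only the spread between libraries. Lycopene is absent from the treatment label of LYC and was taken from the sample titles and the study.

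The liver packs triglyceride and cholesteryl ester with apolipoprotein B into very low-density lipoprotein (VLDL), and lipases on vessel walls then take fatty acids from these particles. HDL forms where cells export cholesterol to apolipoprotein A-I, and plasma enzymes and transfer proteins change its lipids as it circulates. The remnants that lipolysis leaves return to the liver through receptors of the low-density lipoprotein receptor family.

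Because ribosomes begin at a start codon, the bases around it are shown for 7 of the 9 members, read from GRCm38.p6. Bases were shown only for members with an entry in a separate extract of promoter sequences, which lacked Lpl and Angptl4. Both of these genes are annotated in the genome. Each run holds 12 bases before the start codon and 9 after it, 5′ to 3′ along the spliced transcript, with the start codon in capitals. The run of Pltp is joined across an intron, and each of the others lies within 1 exon.

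Mttp: gagggagccagcATGatcctcttg
Lipc: gaggccagagacATGggaaatccc
Lcat: cactgggctgtgATGgggctgcct
Pltp: agcttggtcgccATGgtcctgctc
Abca1: ggctgtggtgacATGgcttgttgg
Lrp1: tcggcccacaccATGctgaccccg
Vldlr: cgggcgggcagcATGggcacgtcc

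The base 3 before the start codon, where A or G favours initiation, was A or G in 7 of 7 sequences. The base right after the start codon, where G favours initiation, was G in 5 of 7, the exceptions being Mttp and Lrp1. The libraries give 1 value per gene, so footprints at these codons were not measured apart from those on the rest of the gene.

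The values are RPKM, reads scaled to transcript length and library total, and the whole reads behind them were recovered from the step that 1 read makes. Library totals were 834413 to 4405537 reads in HFD and 311048 to 412113 in LYC, and the median of HFD was 6.91 times that of LYC. A single read on a transcript of 1 kb amounted to between 0.227 and 1.20 RPKM in HFD and between 2.43 and 3.21 RPKM in LYC. The members held 2550 to 15624 reads of a library in HFD and 408 to 1816 in LYC, so the LYC values carry the larger counting error, and depth and diet cannot be told apart.

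In the HFD libraries the 9 genes spanned a wide range of footprint levels per kilobase of transcript. Lcat was highest at 208 ± 38.8 RPKM (SD, n = 3), followed by Lrp1 at 123 ± 17.1 and Mttp at 78.7 ± 12.7, and these neighbours in the order did not overlap. Lipc, Abca1, Pltp and Angptl4 came next, each overlapping its neighbour within this set. Lpl at 7.51 ± 1.56 RPKM and Vldlr at 0.656 ± 0.331 were lowest and stood apart from each other and from the rest. Footprints lie mainly in the coding sequence, which made up 30.5% of the transcript length of Vldlr and 96.7% of that of Lcat. Where the reads of these libraries lay within a transcript was not tested. Per kilobase of coding sequence Lcat was again first at 215 ± 40.2, Lrp1 at 135 ± 18.7 and Mttp at 132 ± 21.3 then overlapped, and Lpl stood at 21.3 ± 4.43, again below Angptl4 at 31.6 ± 4.63. Lpl and Vldlr are mainly made outside the liver in adults.

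**Figure D1:**
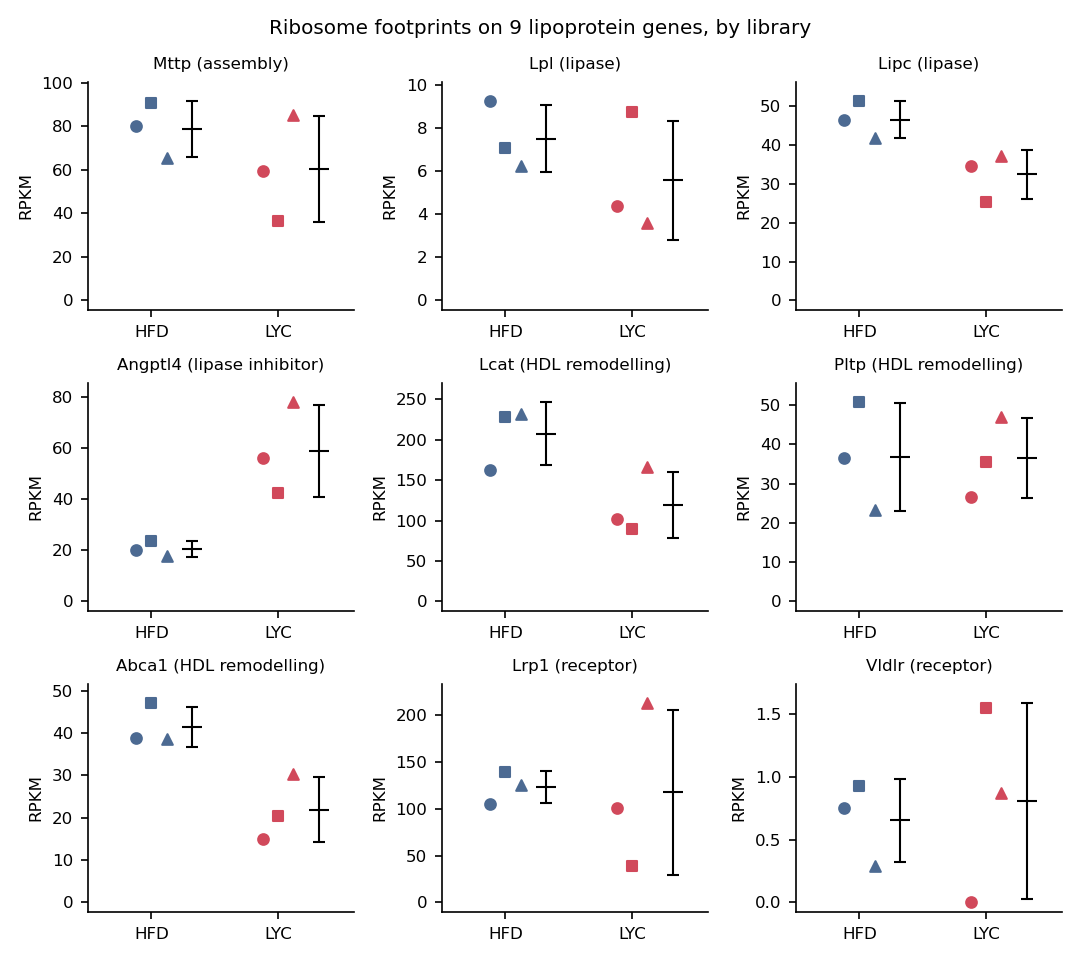
Deposited RPKM (vertical axes, linear, each gene on its own scale) of the 9 genes in the 3 HFD and 3 LYC libraries. Circles, squares and triangles are replicates 1, 2 and 3, and the bar beside each group is the mean ± SD; Angptl4 is the gene whose LYC libraries all lie above its HFD libraries, while Abca1 and Lipc lie below.

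Of the 9 genes, Angptl4 rose in LYC and no other passed the test. Its RPKM was 2.86 times higher in LYC, on the means of the deposited values. Abca1, the cholesterol exporter, was 0.527 times its HFD level, but the difference fell short of the limits. The test was limma's moderated test, two-sided, on log2(RPKM divided by the library's TMM factor, plus 1), where TMM is edgeR's trimmed mean of M-values. A gene was called where the absolute log2 fold change was above 1 and the unadjusted p below 0.01. Of 5776 genes with enough reads to be tested, 403 were called higher and 365 lower, which is 13.3% in either direction and 6.98% higher. Among the members 8 passed the filter, 1 was called, and Vldlr was left out by its low reads. A share of 1 in 8 lies near that background. The median log2 fold change was -0.17 over the 8 members and -0.10 over all genes tested, with 6 members below 0 and 2 above.

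Mttp encodes the microsomal triglyceride transfer protein, which loads lipid onto apolipoprotein B in the endoplasmic reticulum. It lies on the minus strand of chromosome 3, from 138089855 to 138143418, with 18 exons. Its RPKM was 80.0, 90.8 and 65.5 in HFD1 to HFD3 and 59.7, 36.4 and 85.1 in LYC1 to LYC3. LYC2 was the lowest of the 6, LYC3 lay inside the HFD range, and the groups overlapped. The log2 fold change was -0.15 with a 95% interval from -0.95 to 0.64 (limma, adjusted p = 0.805 by Benjamini-Hochberg), and without LYC2 it was 0.23.

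Apob, the structural protein of VLDL that Mttp loads, had an RPKM of 826, 1270 and 867 in HFD and 566, 390 and 791 in LYC. All LYC libraries lay below the HFD libraries as deposited, but not after TMM scaling, where the log2 fold change was -0.50 (standard error 0.32, limma adjusted p = 0.34 by Benjamini-Hochberg). Within a library, the ratio of Mttp to Apob RPKM was 0.0969, 0.0715 and 0.0755 in HFD and 0.105, 0.0933 and 0.108 in LYC. On average the ratio was 1.27 times higher in LYC on the log scale, the groups overlapped, and the exact permutation test, two-sided, gave p = 0.2 (0.3 after adjustment over the 3 ratios tested). With 3 libraries against 3 the smallest p this test can give is 0.1. These ratios need no scaling between libraries.

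Lpl encodes lipoprotein lipase, the enzyme that releases fatty acids from VLDL and chylomicrons in capillaries. The gene spans chromosome 8 from 68880555 to 68906932 on the plus strand, in 10 exons. Its RPKM was 9.24, 7.06 and 6.22 in HFD and 4.38, 8.73 and 3.60 in LYC. LYC2 lay inside the HFD range and the other LYC libraries below it. The LYC values rested on 7, 11 and 6 reads, against 102, 126 and 21 in HFD. On the scaled log2 scale LYC differed from HFD by -0.19, with a 95% interval from -1.02 to 0.64 (limma, adjusted p = 0.767 by Benjamini-Hochberg), and it was 0.02 without LYC3.

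Lipc encodes hepatic lipase, which the hepatocyte secretes and which acts on HDL and on remnants. Its 9 exons lie on chromosome 9, minus strand, between 70798128 and 70952221. Its RPKM was 46.4, 51.2 and 41.7 in HFD and 34.7, 25.4 and 37.1 in LYC. As deposited, every LYC library lay below every HFD library, whereas after TMM scaling the groups overlapped, with 40.4 to 44.5 in HFD and 25.3 to 43.3 in LYC. Limma gave a log2 fold change of -0.23 with a 95% interval from -0.85 to 0.39 (adjusted p = 0.606 by Benjamini-Hochberg). The ratio of Lipc to Lpl within a library was 5.02, 7.25 and 6.70 in HFD and 7.92, 2.91 and 10.3 in LYC. These ratios overlapped, their means differed by -0.01 on the log2 scale, and the exact permutation test gave p = 1. The difference was 0.53 without LYC2 and -0.38 without LYC3.

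Angptl4 encodes angiopoietin-like 4, a secreted protein that inactivates lipoprotein lipase and that rises in the fasted liver. It lies on the minus strand of chromosome 17, from 33774900 to 33781575, with 7 exons. Its RPKM was 20.2, 23.6 and 17.6 in HFD and 56.0, 42.2 and 77.8 in LYC. These values came from 105, 198 and 28 reads in HFD1 to HFD3 and from 42, 25 and 61 reads in LYC1 to LYC3. Every LYC library lay above every HFD library, and the lowest of them, LYC2, was above the highest HFD library, HFD2.

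The log2 fold change of Angptl4 was 1.72 (SE 0.30, 95% interval 1.03 to 2.41, limma adjusted p = 0.0109 by Benjamini-Hochberg). It was higher in 3 of 3 LYC libraries, and was called under 18 of 18 alternatives, with log2 fold changes from 1.44 to 2.00 and adjusted p from 7.64e-07 to 0.0641. The largest adjusted p values came with HFD2 or HFD3 left out, at 0.0503 and 0.0641. On the deposited RPKM alone the exact permutation test gave p = 0.1, the smallest it can give.

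The ratio of Angptl4 to Lpl, the inhibitor to the enzyme, was 2.19, 3.34 and 2.84 in HFD and 12.8, 4.84 and 21.6 in LYC. Every LYC library had a higher ratio than every HFD library. On the log2 scale the groups differed by 2.00, which is 4.01-fold, with an SD of 0.31 in HFD and 1.10 in LYC. The difference was 2.60 without LYC2 and 1.52 without LYC3. The exact permutation test, two-sided, gave p = 0.1, or 0.3 after adjustment over the 3 ratios. The LYC ratios rested on the few Lpl reads given above.

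**Figure D2:**
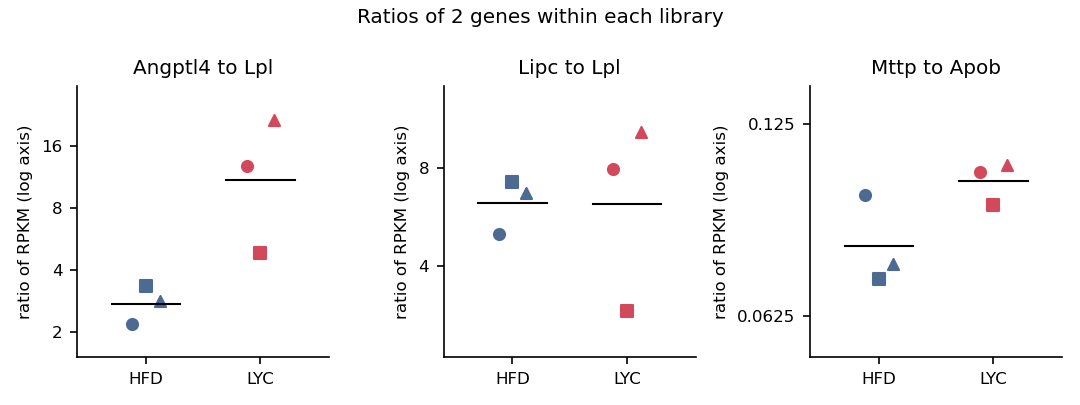
Ratio of the RPKM of 2 genes within each library (vertical axes, log scale) for Angptl4 to Lpl, Lipc to Lpl and Mttp to Apob, in 3 HFD and 3 LYC libraries. Circles, squares and triangles are replicates 1, 2 and 3 and the line is the mean on the log scale; the groups are apart for Angptl4 to Lpl, where LYC2 at 4.84 is nearest to HFD.

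The genes whose profile over the 6 libraries was most like that of Angptl4, by the root mean square distance of centred log2 values among 5775 other tested genes, were Cox20, Mbd1 and Snord66. Cox20, an assembly factor of cytochrome c oxidase, was at a distance of 0.08, with an RPKM of 19.7, 23.3 and 18.7 in HFD and 50.9, 43.1 and 70.4 in LYC. Those values rested on 6 to 13 reads in the LYC libraries. Mbd1, a protein that binds methylated DNA, and Snord66, a small nucleolar RNA, were both at 0.22.

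Lcat encodes lecithin-cholesterol acyltransferase, the plasma enzyme that esterifies the cholesterol of HDL. The gene spans chromosome 8 from 105939551 to 105943402 on the minus strand, in 6 exons. Its RPKM was 163, 228 and 232 in HFD and 102, 89.7 and 166 in LYC. LYC3 lay just above HFD1, the other LYC libraries lay below all of HFD, and the groups overlapped. The log2 fold change was -0.54 with a 95% interval from -1.22 to 0.15 (limma, adjusted p = 0.266 by Benjamini-Hochberg).

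Pltp encodes the phospholipid transfer protein, which moves phospholipid between lipoproteins and enlarges HDL. Its 16 exons lie on chromosome 2, minus strand, between 164839518 and 164857708. Its RPKM was 36.6, 50.7 and 23.2 in HFD and 26.7, 35.6 and 47.0 in LYC. All of the LYC libraries lay inside the HFD range. On the scaled log2 scale LYC differed from HFD by 0.30, with a 95% interval from -0.39 to 1.00 (limma, adjusted p = 0.536 by Benjamini-Hochberg), falling to 0.03 without HFD3.

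Abca1 encodes the transporter that passes cholesterol and phospholipid to apolipoprotein A-I and so starts HDL. It lies on the minus strand of chromosome 4, from 53030789 to 53159988, with 50 exons. Its RPKM was 38.9, 47.0 and 38.7 in HFD and 15.1, 20.4 and 30.3 in LYC. These values came from 1088, 2125 and 331 reads in HFD1 to HFD3 and from 61, 65 and 128 reads in LYC1 to LYC3. Every LYC library lay below every HFD library, also after TMM scaling, with 37.2 to 37.5 in HFD and 18.8 to 33.1 in LYC.

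The log2 fold change of Abca1 was -0.66 (SE 0.28, 95% interval -1.30 to -0.01, limma adjusted p = 0.161 by Benjamini-Hochberg). It was lower in 3 of 3 LYC libraries, passed neither limit of the call, and stayed below 0 under every alternative, between -0.94 and -0.32. The smallest difference came with the trend on gene length removed from each library. After TMM scaling the groups did not overlap for 2 of the 8 members tested, Angptl4 and Abca1, beside 37.7% of all genes tested.

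Lrp1 encodes a large endocytic receptor that takes up remnants carrying apolipoprotein E. The gene spans chromosome 10 from 127538157 to 127621148 on the minus strand, in 89 exons. Its RPKM was 105, 139 and 125 in HFD and 101, 38.6 and 212 in LYC. LYC2 was the lowest and LYC3 the highest of the 6 libraries, with LYC1 near HFD1. The reads were 593, 179 and 1303 in LYC1 to LYC3.

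The highest LYC library was 5.49 times the lowest for Lrp1, against 1.32 times in HFD. Among 297 tested genes with at least 100 reads in each LYC library, a limit set after these values were seen, the median of that ratio was 1.59. Lrp1 and Vaultrc5, a vault RNA, were the only 2 at 5.49 or above, which is 0.673% of the 297. In HFD the median was 1.36 over 979 genes, and 59.0% of them were at or above Lrp1. Between LYC3 and LYC2, Lrp1 differed by 2.56 on the scaled log2 scale, while the median over the 170 tested genes of 10000 nt or longer was -0.02 and over all tested genes 0.01.

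The log2 fold change of Lrp1 was -0.08 with a 95% interval from -1.34 to 1.18 (limma, adjusted p = 0.937 by Benjamini-Hochberg), the widest interval of the 8. It was 0.62 without LYC2 and -0.67 without LYC3, so its direction rested on single libraries. On the recovered reads edgeR gave 0.26 and DESeq2 0.25.

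Vldlr encodes the very low-density lipoprotein receptor. Its 18 exons lie on chromosome 19, plus strand, between 27216480 and 27254231. Its RPKM was 0.751, 0.929 and 0.289 in HFD and 0, 1.55 and 0.876 in LYC. These values came from 17, 34 and 2 reads in HFD1 to HFD3 and from 0, 4 and 3 reads in LYC1 to LYC3, so the gene was near the limit of detection and a difference was not detectable at this depth. The ratio of Vldlr to Lrp1 was not tested, since LYC1 held no Vldlr read.

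**Figure D3:**
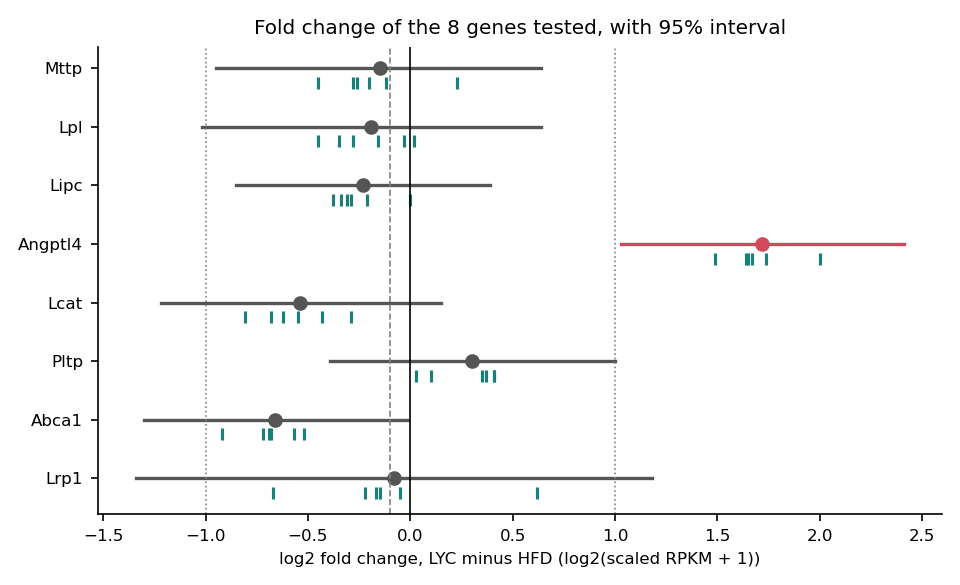
Log2 fold change, LYC minus HFD, on log2(scaled RPKM + 1) (horizontal axis) of the 8 genes tested, with the 95% interval as a line. The small ticks under each are the values with 1 library left out, the dashed line is the median of all genes at -0.10 and the dotted lines mark -1 and 1; Angptl4 alone lies beyond a dotted line, and the ticks of Lrp1 run from -0.67 to 0.62.

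The other genes of the pathway were taken from 4 lists of 58 genes in all. All gene lists here were written with earlier results of these data known, so their shares are descriptions and not tests. Of the 50 that passed the filter, 0 were called higher and 2 lower by limma, Scarb1 and Pla2g12b, beside 6.98% higher and 6.32% lower over all genes tested. At an unadjusted p below 0.05 the counts were 8 higher and 4 lower, beside 15.0% of all genes tested in each direction. On the recovered reads edgeR and DESeq2 each called 2 higher, Abcg5 and Kif5b, and the same 2 lower. Over all genes edgeR called 8.59% higher and 6.80% lower, and DESeq2 8.81% and 6.73%. The median log2 fold change was -0.22 beside -0.10 for all genes tested, and 19 of the 50 were above 0, beside 45.0% of all genes tested.

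Scarb1 encodes the HDL receptor SR-BI, through which the liver takes up cholesteryl ester from HDL. Its RPKM was 82.8, 127 and 103 in HFD and 40.5, 22.0 and 28.8 in LYC, so that the highest LYC library was below the lowest HFD library. It fell by 1.48 on the log2 scale (standard error 0.32, limma adjusted p = 0.0232 by Benjamini-Hochberg) and was called in 17 of 18 alternatives, the exception being the limit of 0.001 on p.

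Pla2g12b, a secreted phospholipase A2 family member without known enzyme activity that is needed for VLDL secretion, had an RPKM of 45.4, 54.9 and 45.0 in HFD and 7.13, 27.1 and 4.55 in LYC. Only 3, 9 and 2 reads lay behind the LYC values. It fell by 1.91 on the log2 scale (standard error 0.51, limma adjusted p = 0.0443 by Benjamini-Hochberg) and was called in 12 of 18 alternatives. The call was lost with any one of HFD1, HFD2, HFD3, LYC1 and LYC3 left out, and the value stayed between -2.54 and -1.44.

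In the list of VLDL assembly and export, 12 of 14 genes were tested, 6 were above 0 and 6 below, and the median was -0.01. None was called by limma, while 4 of the 12 were higher and 0 lower at an unadjusted p below 0.05, beside 15.0% of all genes tested in each direction. Both edgeR and DESeq2 called Kif5b higher, beside 8.59% and 8.81% of all genes tested. The largest difference there was that of Tm6sf2, a VLDL lipidation factor, at 12.9, 28.7 and 23.2 RPKM in HFD and 1.75, 2.22 and 23.5 in LYC. Only 1, 1 and 14 reads lay behind the LYC values, LYC3 lay inside the HFD range, and the log2 fold change of -1.59 did not pass (limma, adjusted p = 0.204 by Benjamini-Hochberg). Among lipases and their cofactors, 13 of 14 were tested and the median was -0.57, with 10 below 0. Furin, a protease that cleaves Lpl and Angptl4, had -0.93 (limma, adjusted p = 0.151 by Benjamini-Hochberg). Apoc2, the activator of Lpl, had 0.22, with 223 to 282 RPKM in HFD and 218 to 254 in LYC, and Apoc3, an inhibitor of lipolysis, had -0.21; neither passed.

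In the list of HDL and cholesterol efflux, 13 of 14 genes were tested, 8 were above 0 and 5 below, and the median was 0.19. Beside Scarb1, the largest difference was that of Soat2, which esterifies cholesterol in the cell, at -1.67 with 0 to 8 reads in the LYC libraries (limma, adjusted p = 0.179 by Benjamini-Hochberg). Among receptors and their regulators, 12 of 16 were tested, 10 were below 0, and the median was -0.52, with Lrp10 the farthest from 0 at -1.17 (limma, adjusted p = 0.174 by Benjamini-Hochberg). None of these receptor genes was called by limma, beside 6.98% higher and 6.32% lower over all genes tested, and edgeR and DESeq2 also called 0. At an unadjusted p below 0.05 in limma, 0 were higher and 1 lower, beside 15.0% of all genes tested in each direction. Apoe, the ligand of Lrp1 and Vldlr, had an RPKM of 10605, 9902 and 16309 in HFD and 4911, 5551 and 7215 in LYC. Its groups were apart as deposited and overlapped after TMM scaling, with a log2 fold change of -0.75 (limma, adjusted p = 0.209 by Benjamini-Hochberg).

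Abca1, Pltp and Lpl are textbook targets of the liver X receptors (LXR), nuclear receptors that sense oxysterols. The LXR list holds the receptor genes as well as targets, and was written with earlier results of these data known. Its counts therefore do not test whether LXR activity differed. Of its 12 genes 9 were tested, and limma called 3 lower, beside 6.32% of all genes tested, and 0 higher. At an unadjusted p below 0.05 the list had 1 higher and 4 lower, beside 15.0% of all genes tested in each direction. Both edgeR and DESeq2 called the same 3 lower and 1 higher, Abcg5. Over all genes tested edgeR called 6.80% lower and 8.59% higher, and DESeq2 6.73% and 8.81%. The 3 lower genes were Nr1h3 and Nr1h2, which encode the receptors themselves, and Lpcat3, a lysophospholipid acyltransferase that LXR induces. Nr1h3 had an RPKM of 36.6, 50.7 and 40.1 in HFD and 8.77, 7.42 and 18.2 in LYC, with 6, 4 and 13 reads behind these LYC values, and fell by 1.61 on the log2 scale (standard error 0.36, limma adjusted p = 0.0245 by Benjamini-Hochberg). Nr1h2 fell by 2.46, resting on 0, 1 and 5 reads in LYC, and Lpcat3 fell by 1.19, with 11, 9 and 27 reads in LYC. Their adjusted p values by the same limma test were 0.0537 and 0.0652.

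Nr1h3 was called in 17 of 18 alternatives, Nr1h2 in 10 of 16 and Lpcat3 in 9 of 18. The call of Nr1h2 was lost without LYC1 or LYC2, and that of Lpcat3 without any one of the 5 libraries other than LYC3. Over the alternatives Nr1h2 stayed between -3.73 and -1.76 and Lpcat3 between -1.58 and -0.95. Abcg5, a sterol exporter of the same list, pointed the other way with 1.31, which did not pass (limma, adjusted p = 0.129 by Benjamini-Hochberg). It had 11.7, 22.1 and 6.96 RPKM in HFD and 18.9, 61.3 and 15.1 in LYC, with the groups overlapping.

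Angptl4 and Vldlr are also textbook targets of PPAR-alpha, the nuclear receptor of the fasting liver. Of 14 genes in that list 11 were tested, and Angptl4 was the only 1 called, a share near the 6.98% called higher over all genes tested. Of these 11, 6 were above 0 and 5 below, with a median of 0.13. At an unadjusted p below 0.05 in limma, 2 were higher and 1 lower, beside 15.0% of all genes tested in each direction.

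**Figure D4:**
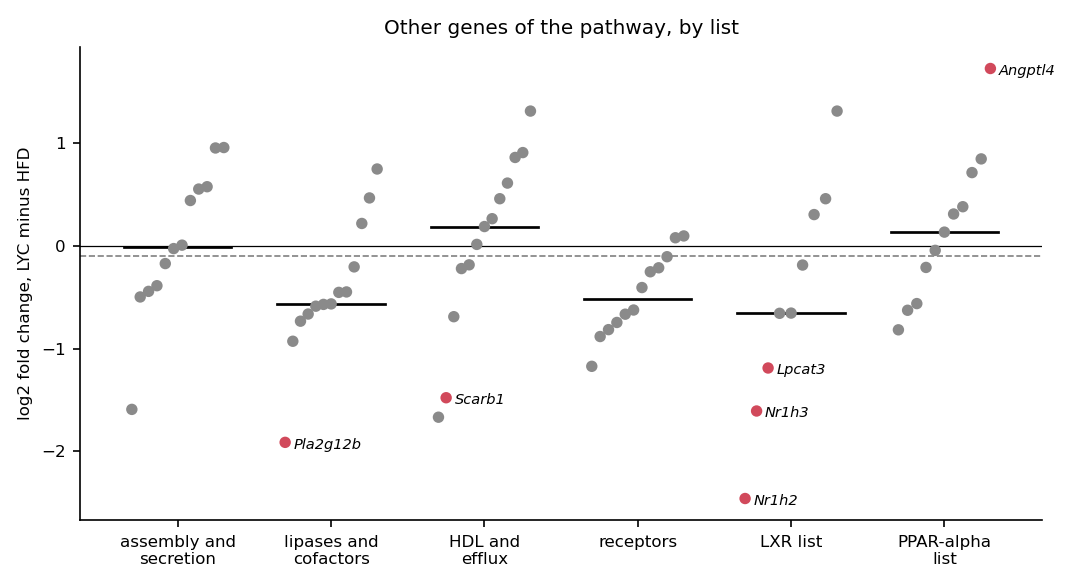
Log2 fold change, LYC minus HFD (vertical axis), of the tested genes in 4 pathway lists without the 9 members and in the LXR and PPAR-alpha lists with them, each point 1 gene. Red points are called, black lines are list medians and the dashed line is the median of all genes at -0.10; 2 genes of the pathway lists and 3 of the LXR list were called lower, and Angptl4 was called higher.

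Whole liver holds several cell types, and fewer cells of a type cannot be told apart from less RNA per cell. Hepatocyte markers summed to 36582 to 41233 RPKM in HFD and 24273 to 31065 in LYC, and the median log2 fold change of the 9 tested was -0.36. Of these 9, 3 were called higher, Tat and Cps1 among them, beside 6.98% of all genes tested, and 0 were called lower, beside 6.32%. At an unadjusted p below 0.05 in limma, 3 were higher and 1 lower, beside 15.0% of all genes tested in each direction. Adipocyte markers, relevant to Lpl and Angptl4, summed to 8.84 to 18.1 RPKM in HFD and 7.89 to 30.6 in LYC, with Lep, Plin1 and Retn at 0 in all libraries and no marker tested. The adipocyte sums rested on 175 reads in HFD and 25 in LYC. Kupffer cell markers summed to 223 to 314 in HFD and 157 to 258 in LYC with 0 of 10 called by limma and a median log2 fold change of -0.26. At an unadjusted p below 0.05 they had 1 higher and 2 lower, beside 15.0% of all genes tested in each direction. By edgeR and DESeq2 Vsig4 alone was called, as higher, beside 8.59% and 8.81% of all genes tested. Endothelial markers summed to 107 to 150 and 56.2 to 163, with Eng called lower among 8, beside 6.32% of all genes tested. Their median log2 fold change was -0.24, with 1 higher and 2 lower at an unadjusted p below 0.05, beside 15.0% in each direction. Stellate cell markers summed to 98.4 to 181 and 93.1 to 140, and none of the 6 tested was called by limma, edgeR or DESeq2. None of these 6 had an unadjusted p below 0.05 in limma, beside 15.0% of all genes tested in each direction. Cholangiocyte markers summed to 15.4 to 25.1 and 2.89 to 9.25 with none tested. These sums rested on 342 reads over the HFD libraries and only 15 over the LYC libraries. Blood markers summed to 636 to 1438 and 861 to 1002, with Alas2 called higher among 3, beside 6.98% of all genes tested. The median log2 fold change of these 3 was 0.70, with 2 higher and 0 lower at an unadjusted p below 0.05, beside 15.0% in each direction. Whether the mix of cells had a part in the results above was not tested.

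The second set of libraries, labelled RNA-seq, could not serve as an independent measure of RNA. Each of its libraries tracked 1 Ribo-seq library across 15552 genes, with Pearson's r of 0.938 to 0.963, and genes are not independent replicates. The next Ribo-seq library had an r of 0.926 to 0.935 for the HFD libraries and 0.848 to 0.855 for the LYC libraries, so in HFD the correlation alone separates the libraries little. The reads on the 9 members did so more plainly, with 16025, 2626 and 7799 counts in RNA-labelled HFD1, HFD2 and HFD3 against 15624, 2550 and 7592 reads in Ribo-seq HFD2, HFD3 and HFD1. For HFD the replicate numbers of the matching libraries were shifted, RNA-labelled HFD1, HFD2 and HFD3 matching Ribo-seq HFD2, HFD3 and HFD1. Angptl4 had 205, 28 and 106 counts in those HFD libraries and 42, 25 and 61 counts in those LYC libraries, nearly the reads of the matching Ribo-seq libraries. No translational efficiency was therefore computed, and these libraries were not counted as further samples. Whether the matching reads came from footprints or from undigested mRNA was not tested. The word footprint follows the Ribo-seq label throughout. Fitted by edgeR's quasi-likelihood test, Angptl4 differed by 1.85 on the log2 scale (standard error 0.30, adjusted p = 0.000387 by Benjamini-Hochberg) and was the only member called of 8 tested, beside 16.6% of all 5921 genes tested there, 7.33% as lower. Abca1 had -0.62 (edgeR, adjusted p = 0.121 by Benjamini-Hochberg) and Lrp1 0.27. Library totals matched less well in LYC, with 673832, 582184 and 687242 counts against 394458, 311048 and 412113 in the matching Ribo-seq libraries. In HFD they were 4730705, 805557 and 2976534 against 4405537, 834413 and 2726193. What made up the additional LYC counts was not tested. With total counts in place of TMM factors the median over all genes went from -0.03 to -1.11 on the log2 scale, and 48.9% of all genes were called, 46.6% as lower. Under that shift 5 members were called lower, and Angptl4, at 0.76, was not called.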

How the data were processed

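Ribo-seq gave 3 HFD and 3 LYC liver libraries. Per the labels and the study's methods, the authors cleaned raw reads with cutadapt and bowtie2, aligned to GRCm38/mm10 with STAR, quantified with FANSE2 and deposited RPKM. Versions and annotation are not stated. The table labelled RNA-seq, as deposited, holds counts and RPKM. The gene length that those counts and RPKM imply gave whole reads, within 0.02 reads, in all 6 Ribo-seq libraries for 11129 genes; for 4620 more, the length was fitted to their own values. Of 25033 entries, 4 sharing a name were dropped and 26 had names turned into dates. As the deposited unit is RPKM, limma 3.58.1 with trend was run on log2(RPKM / TMM factor + 1) in R 4.3.3, with factors from edgeR 4.0.16 over genes kept by filterByExpr on recovered reads. The pseudocount of 1 understates changes of low genes. The call used the p limit of 0.01. Adjusted p values cover all 5776 genes tested. DESeq2 1.42.0, edgeR on recovered reads, other scalings, pseudocount 0.1, no filter, stricter limits, a length trend, a replicate block and leaving out libraries were alternatives. The fits were also run on simulated counts. That simulation gave every gene the same dispersion and the libraries no scaling difference beyond depth, so its setting was simpler than these data.

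The members and gene lists were chosen with earlier results of these data known. Named genes were all members, the called and the farthest uncalled gene of each pathway, LXR and PPAR-alpha list, Apob, Apoe, Apoc2 and Apoc3 as partners, and the 3 profiles nearest to a called member. Called markers, Vaultrc5, Kif5b and Vsig4 were named after their values were seen. Some genes that this rule or a marker list names are not reported here. Start codons came from RefSeq, GRCm38.p6.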

Additional observations from a re-analysis of the deposited data

How the results depend on the processing

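Angptl4 was called under all 18 alternatives and no other member under any of them. Directions reversed for Mttp (0.07) and Lpl (0.02) with the gene length trend removed, and for Lrp1 with that setting (0.32), edgeR (0.26) and DESeq2 (0.25) on recovered reads; the cause was not tested. With 1 library left out, log2 fold changes ranged from -0.45 to 0.23 for Mttp, -0.45 to 0.02 for Lpl, -0.38 to -0.00 for Lipc, 1.49 to 2.00 for Angptl4, -0.81 to -0.29 for Lcat, 0.03 to 0.41 for Pltp, -0.92 to -0.52 for Abca1 and -0.67 to 0.62 for Lrp1. Calls over all genes, 403 higher and 365 lower, became 235 and 651 without a scaling factor, 357 and 876 without a filter, 196 and 101 at p below 0.001, 313 and 478 with TMM factors over all genes before the filter, an alternative chosen after seeing the data, and 268 to 574 and 143 to 705 with 1 library left out (268 and 143 without HFD3; 171, 188 and 705 lower without HFD1, HFD2 and LYC3). Over all genes the median was -0.36 without a scaling factor and 0.02 with the length trend removed, against -0.10. Other pathway genes called numbered 4 without a scaling factor, 4 with edgeR, 4 with DESeq2, 0 at p below 0.001, and 1 to 6 with 1 library left out (1 without any one HFD library, 6 without LYC3), against 2. In the libraries labelled RNA-seq 5 members were called without a scaling factor, where the median of all genes was -1.11, 48.9% of genes were called, Pltp was -0.83 and Lrp1 -0.81. There Lrp1 was -0.04 with the replicate block, and leaving out 1 library gave -0.36 to 0.24 for Mttp, -0.56 to 0.07 for Lpl, -0.30 to 0.03 for Lipc, -0.02 to 0.42 for Pltp and -0.40 to 0.71 for Lrp1. Same-numbered Ribo-seq libraries deviated from their group means with correlations of 0.108, 0.026 and 0.007, so the numbers do not pair them; with a replicate block 397 genes were called higher and 341 lower, and Angptl4 was 1.72. Lpl, Vldlr, Pla2g12b, Soat2 and Nr1h2 had 11 reads or fewer in every LYC library, which limits what can be seen of them.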
